A study of Arabidopsis thaliana with 9 samples.

Results

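The genes described here are 4 genes of chromatin and DNA replication in a cultured Arabidopsis cell line, read with its walls in place and after they were digested away. They are the centromeric histone gene HTR12 (AT1G01370), the core histone gene HTB1 (AT1G07790), the linker histone gene HIS1-3 (AT2G18050) and the replication licensing gene PRL (AT4G02060). They were picked by name from 13356 genes read on Affymetrix ATH1 arrays, with their levels in these samples already known. Each was read by 1 probe set that the array's annotation assigns to that gene alone, so no choice between probe sets was needed.

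The samples were T87 cells, a wild-type suspension culture of Arabidopsis thaliana that is kept growing by weekly dilution, and all were taken 4 days into the culture. There were 3 groups of 3 biological replicates. Intact cells received no treatment. Osmotic cells had 3 h in medium that held 0.4 M mannitol, a sugar alcohol used to withdraw water osmotically. Protoplasts were first digested for 1.5 h in 0.35 M mannitol, with pectolyase Y-23 at 0.5% and cellulase Onozuka RS at 1%, then washed in mannitol and held for 3 h in the same 0.4 M mannitol medium. The labels name no intact cells that had their medium changed, and no osmotic cells that went through the digestion time and washes without enzyme. Mannitol therefore cannot be told apart from handling in osmotic against intact cells, nor loss of the wall from digestion and washing in the comparisons with protoplasts. Between protoplasts and intact cells, mannitol cannot be told apart from these either. Protoplasts also spent longer in mannitol than osmotic cells, by the 1.5 h of digestion and the washes, so time in mannitol cannot be told apart there. As the culture is 1 line of undifferentiated cells, it has no defining tissue marker. Of 10 markers of root hairs, guard cells, xylem, epidermis and phloem, 3 were measured (EXPA7, EXPA18 and FMA), and their summed intensity lay between 24.1 and 93.1 on every array.

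Nucleosomes wrap DNA around an octamer of the core histones H2A, H2B, H3 and H4, and linker histones of the H1 family bind the DNA that enters and leaves this particle. Core histone genes that supply new chromatin are transcribed mainly during S phase. At the centromere H3 is replaced by a variant, encoded in Arabidopsis by HTR12 and also called CENH3, on which the kinetochore is built. PRL, also called PROLIFERA or MCM7, encodes a subunit of the MCM helicase that is loaded on replication origins before S phase and licenses them to fire once per cycle. HIS1-3 stands apart from the other H1 genes as a variant known to be induced by drought and abscisic acid in Arabidopsis plants.

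Intensities are the deposited linear values, scaled on each array to a trimmed mean of 500. Differences are given on the scale of log2(intensity + 16), with standard errors (SE) from 1 limma model of all 9 arrays, and this scale understates the changes of dim genes. A gene was called at a limma adjusted p under 0.05 over all genes. Protoplast arrays had a lower median intensity, 123 ± 7.65, than intact arrays with 155 ± 2.22 and osmotic arrays with 156 ± 9.44 (SD, n = 3). The median gene differed by -0.10 between protoplasts and intact cells, and by 0.19 once each array was centred on its median. Of the genes called between these groups, 64.9% were lower in protoplasts as deposited and 48.6% after this centring. Between protoplasts and osmotic cells these shares were 66.0% and 46.6%, with 58.4% after quantile normalization. The ratio of the 3′ to the 5′ actin control, which rises when RNA is degraded, was 1.95 ± 0.25 in intact cells, 1.92 ± 0.13 in osmotic cells and 2.27 ± 0.17 in protoplasts (SD, n = 3). The same ratio for GAPDH was 1.05 ± 0.13, 0.98 ± 0.05 and 1.04 ± 0.03. The part of these shifts in the results below was not tested.

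**Figure D1:**
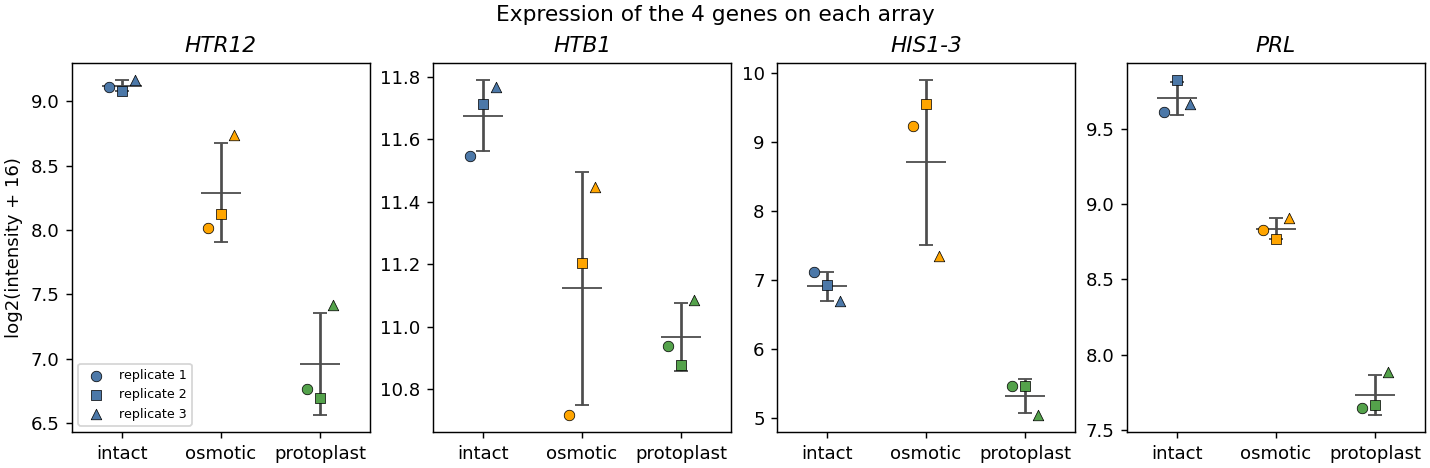
Expression of HTR12, HTB1, HIS1-3 and PRL as log2(intensity + 16) on each array, with the 3 groups on the horizontal axis, a marker shape per replicate number, and bars for the mean and SD of 3 arrays. HTR12 and PRL step down from intact through osmotic cells to protoplasts, HTB1 is highest in intact cells, and HIS1-3 is highest in osmotic cells and lowest in protoplasts.

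Because the choice of these genes rested on their levels in the 3 groups, their values are a description and no p-value is given for them. HTR12 stepped down from intact through osmotic cells to protoplasts. Its intensities were 539, 525 and 559 in intact cells, 243, 263 and 410.3 in osmotic cells, and 92.9, 87.5 and 155 in protoplasts (replicates 1, 2 and 3). The 3 groups did not overlap at all, and intact cells were the most even of them. On the linear scale the mean of intact cells was 1.77 times that of osmotic cells and 4.84 times that of protoplasts. On the log2 scale, osmotic cells differed from intact cells by -0.83 ± 0.25, protoplasts from intact cells by -2.16 ± 0.25 and protoplasts from osmotic cells by -1.33 ± 0.25 (SE). In whole cultures such as these, fewer cells that express a gene and less of its RNA per cell cannot be told apart.

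PRL followed the same order with tighter replicates. Its intensities were 766, 889.8 and 795 in intact cells, 439, 421 and 464 in osmotic cells, and 184, 187 and 221 in protoplasts. No array of a group reached the range of another group. The SD within groups was 0.11 on the log2 scale, at the 3.46 percentile of all genes, against 0.32 for HTR12 at the 51.0 percentile. Differences were -0.86 ± 0.16 in osmotic against intact cells, -1.97 ± 0.16 in protoplasts against intact cells and -1.10 ± 0.16 in protoplasts against osmotic cells (SE). The difference in mannitol medium was thus 43.9% of that in protoplasts on the log2 scale for PRL, and 38.4% for HTR12. These shares depend on the scaling of the arrays. After median centring the differences in mannitol medium and in protoplasts were -0.87 and -1.67 for PRL, and -0.84 and -1.87 for HTR12.

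HTB1 encodes a core H2B, and its differences were the smallest of the 4 genes. It had 2979, 3344 and 3469.8 in intact cells, 1667, 2344 and 2777 in osmotic cells, and 1946, 1864 and 2159.6 in protoplasts. Every osmotic and protoplast array lay below every intact array, while the osmotic and protoplast arrays overlapped. Osmotic cells differed from intact cells by -0.55 ± 0.21 and protoplasts from intact cells by -0.71 ± 0.21 on the log2 scale (SE). Protoplasts differed from osmotic cells by -0.16 ± 0.21, a value that is smaller than its SE and becomes 0.15 after median centring and 0.01 without osmotic replicate 3. Median centring also brought the difference between protoplasts and intact cells to -0.41.

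HIS1-3 was higher in mannitol medium, where the other 3 genes were lower, and lower than in intact cells in protoplasts. Its intensities were 122, 105 and 87.3 in intact cells, 580.0, 733 and 146 in osmotic cells, and 28.1, 28.0 and 16.9 in protoplasts. The 3 groups did not overlap, but osmotic replicate 3 lay close to the intact arrays and the other osmotic arrays far above them. The mean of osmotic cells was 4.65 times that of intact cells. On the log2 scale, osmotic cells differed from intact cells by 1.80 ± 0.49, and by 2.48 ± 0.22 without osmotic replicate 3 (SE). Protoplasts differed from intact cells by -1.58 ± 0.49 and from osmotic cells by -3.38 ± 0.49 (SE). The within-group SD of 0.71 was at the 96.1 percentile of all genes. The protoplast values are so dim that the sizes of both these differences depend on the pseudocount. With 1 in place of 16 they were -2.08 against intact and -4.00 against osmotic cells, and with 64 they were -0.93 and -2.43. Whether the gene was above background in protoplasts was not settled, as detection calls were not used, and no fold is given against them.

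The third arrays stood apart for these genes. In each of the 3 groups replicate 3 had the highest HTR12 and HTB1 and the lowest HIS1-3 of its group. Osmotic replicate 3 was also the osmotic array nearest to intact cells for all 4 genes. The same held for 49.4% of the 998 genes whose osmotic and intact means were at least 2-fold apart, against 29.2% for replicate 1 and 21.4% for replicate 2. Without osmotic replicate 3, HTR12 differed by -1.05, HTB1 by -0.72 and PRL by -0.90 between osmotic and intact cells on the log2 scale. Without osmotic replicate 1 these differences were smaller, at -0.69 for HTR12, -0.35 for HTB1 and -0.86 for PRL, and without osmotic replicate 2 that of HIS1-3 was 1.37. Without the third array of every group, the difference between protoplasts and intact cells was -2.37 for HTR12, -2.06 for PRL, -0.72 for HTB1 and -1.55 for HIS1-3.

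**Figure D2:**
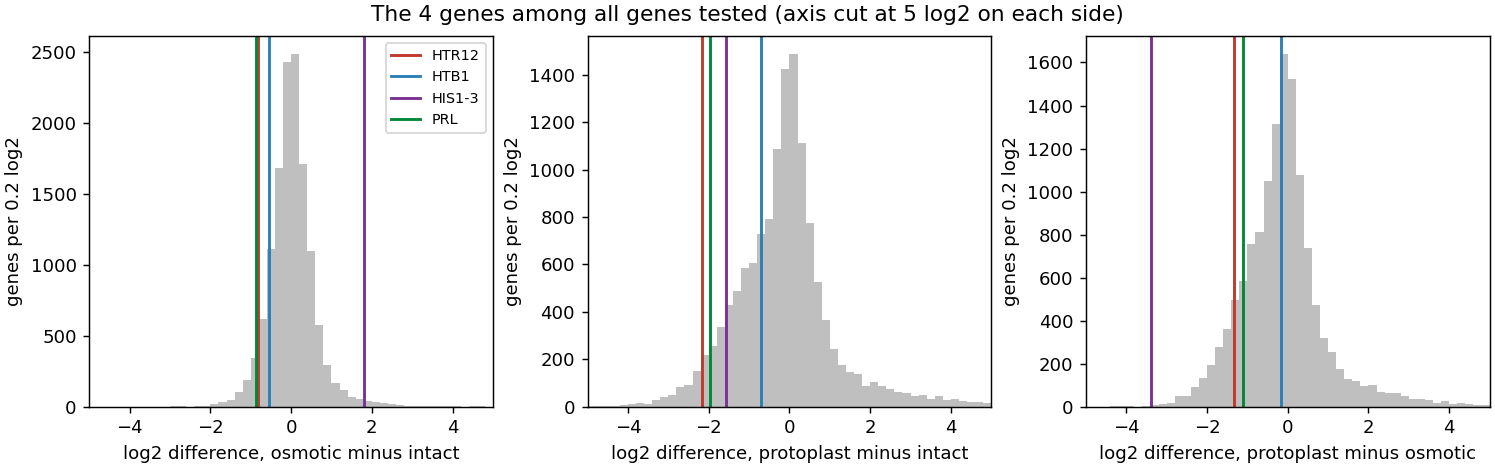
Log2 differences between groups for all 13356 genes (grey histogram, genes per bin of 0.2 log2, axis cut at 5 on each side), with a vertical line for each of the 4 genes. In mannitol medium HIS1-3 lies in the upper tail and the other 3 genes lie in the lower part, and in protoplasts against osmotic cells HIS1-3 lies at the lower end, at a distance that depends on the pseudocount.

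Set among all genes, protoplasts against intact cells called 45.0% of all genes, 15.8% higher and 29.2% lower, and all 4 genes were called lower. Protoplast arrays lay wholly below intact arrays for 33.0% of all genes and for all 4. In this comparison HTR12 was at the 3.98 percentile of the difference, PRL at 5.68 and HTB1 at 28.2, and none is given for HIS1-3, whose difference rests on the pseudocount. Osmotic against intact cells called 7.33% of all genes, 3.58% higher and 3.75% lower, and of the 4 genes PRL alone was called. Osmotic arrays lay wholly below intact arrays for 16.2% of all genes and for 3 of the 4, and wholly above for 14.7% and for HIS1-3. The percentiles were 4.64 for PRL, 5.14 for HTR12, 11.8 for HTB1 and 98.7 for HIS1-3.

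Protoplasts against osmotic cells called 39.0% of all genes, 13.3% higher and 25.7% lower, and 3 of the 4 lower, with HTB1 not called. Arrays lay wholly lower for 30.7% of all genes and for the same 3. Since the genes were chosen on these contrasts, nothing is read from the counts. In osmotic against intact cells, 6 of 19 fits called HTR12 and 5 called HIS1-3, and the call of PRL ended without intact replicate 2 and without osmotic replicate 2. In protoplasts against intact cells, 14 of 19 fits called HTB1 and 15 called HIS1-3. The call of HTB1 ended with median centring and without intact replicate 2 or 3 or protoplast replicate 1 or 2. That of HIS1-3 ended with a pseudocount of 64 and without intact replicate 1 or 2 or protoplast replicate 3.

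The genes with the most similar profiles were taken from 1553 genes that carry a symbol other than a locus code, by Pearson's r of log2 levels over the 9 arrays, which share 3 group means. For HTR12 they were the spindle checkpoint gene BUBR1 (r = 0.996), LSH9 (0.994), the actin gene ACT11 (0.987) and the beta-tubulin genes TUB1 and TUB9 (both 0.985). BUBR1 went from a mean intensity of 377 in intact cells to 221 in osmotic cells and 104 in protoplasts. For PRL they were GTR2 (0.995), the phragmoplast kinesin gene KINESIN-12B (0.994), the beta-tubulin gene TUB7 (0.990), SPK1 (0.989) and TET7 (0.989). KINESIN-12B went from 325 to 177 and 68.4. Such likeness was common, since 11.8% of all genes had r above 0.9 with HTR12 and 11.2% with PRL.

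Profiles like those of HTB1 and HIS1-3 were rarer, at 0.359% and 0.621% of all genes. For HTB1 the nearest were NRAMP5 (r = 0.973), the jasmonate transcription factor gene MYC4 (0.932), ATSPO11-1 (0.920), SPO11-2 (0.917) and PRA1.B1 (0.905). For HIS1-3 they were UGT78D2 (0.984), F2KP (0.980), the cold-regulated gene COR15A (0.943), Fes1C (0.941) and the U-box ligase gene PUB25 (0.937). COR15A, known as a target of cold and water-deficit signalling, went from a mean of 57.2 in intact cells to 183 in osmotic cells and 15.2 in protoplasts. Its protoplast mean was below the 24.3 of HIS1-3, and whether COR15A was above background there was not settled either. UGT78D2 went from 1007 to 1561 and 607.

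LTI30, a water-deficit gene, was higher in protoplasts than in osmotic cells, where HIS1-3 was lower. Of 6 water-deficit genes listed, the 2 measured are dehydrin genes, LTI30 and COR47, which encode proteins that protect water-stressed cells. LTI30 had a mean intensity of 278 in intact cells, 7779 in osmotic cells and 25217 in protoplasts, and was higher in protoplasts than in osmotic cells (log2 difference 1.74 ± 0.25, limma adjusted p = 5.2e-04). COR47 had 160, 216 and 843 in intact cells, 7471, 5497 and 12848 in osmotic cells, and 690, 762 and 6900.0 in protoplasts. Replicate 3 was its highest array in each group, where it was the lowest for HIS1-3, and its protoplast arrays overlapped both other groups. Protoplasts differed from osmotic cells by -2.38 ± 0.88 for COR47, which did not pass (limma adjusted p = 0.059), and passed at -3.45 without protoplast replicate 3 (limma adjusted p = 0.0029). The same comparison passed for COR47 with the replicate number as a block and without the dimmest 40% of genes (limma adjusted p = 0.0033 and 0.035). It also passed without intact replicate 3 and without the third array of every group (limma adjusted p = 0.046 and 3.2e-04). Against intact cells, protoplasts were higher for LTI30 (limma adjusted p = 3.6e-07), and for COR47 had 2.25 ± 0.88 (limma adjusted p = 0.064). For COR47 this passed without intact replicate 3 or protoplast replicate 1 (limma adjusted p = 0.028 and 0.044) and after median centring (limma adjusted p = 0.036). It also passed after quantile normalization and without the dimmest 40% of genes (limma adjusted p = 0.0499 and 0.039). With the block and without the third array of every group it passed too (limma adjusted p = 0.0034 and 0.0011). No difference between these genes and HIS1-3 was tested.

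**Figure D3:**
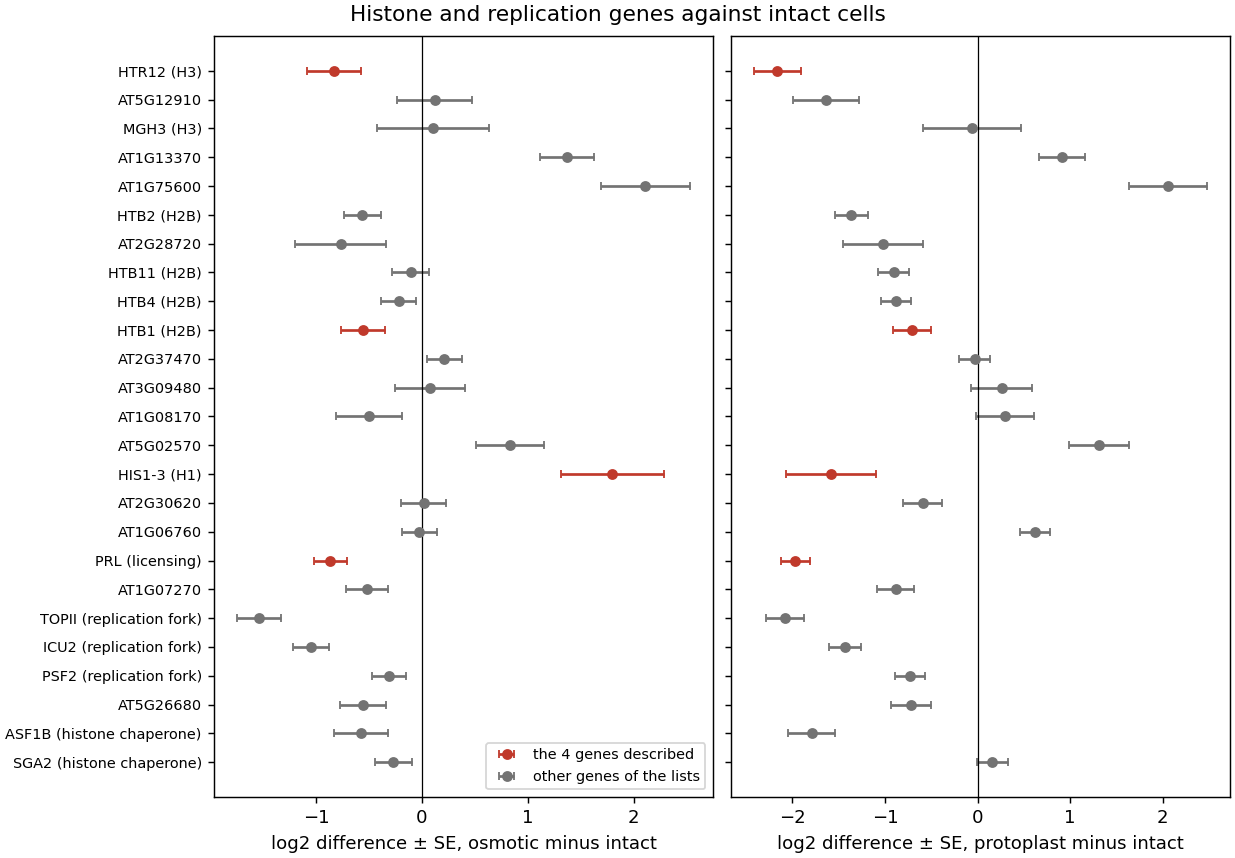
Log2 differences from intact cells (points, with SE bars) for the 4 genes described (red) and 21 other genes of the histone and replication lists (grey), in osmotic cells on the left and protoplasts on the right. Genes with an annotated symbol carry their group in brackets and others their locus code. In protoplasts the named replication and H2B genes lie left of 0, and SGA2 near 0. Genes with a locus code alone lie on both sides of 0.

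Other genes of these pathways were taken from a list of 103 loci of histones, licensing, the replication fork, histone chaperones, the centromere and the G1/S control. Of these, 25 were measured by a probe set of their own, the 4 genes above and 21 others. The 21 hold 8 loci listed under H2B, 4 under H3, 4 of the replication fork, 2 linker histones, 2 histone chaperones and 1 licensing locus. No locus of the H2A, H4, centromere or G1/S lists was measured this way, so the counts below do not cover those lists. In protoplasts against intact cells 11 of the 21 fell (52.4%, against 29.2% of all genes) and 4 rose (19.0%, against 15.8%), with a median log2 difference of -0.72 against -0.10 over all genes. In mannitol medium 2 fell and 2 rose (9.52% each, against 3.75% and 3.58% of all genes), with a median of -0.22 against 0.01. Against osmotic cells, protoplasts were lower for 6 (28.6%) and higher for 1 (4.76%), with 25.7% of all genes called lower and 13.3% higher, so the share of lower calls was near that over all genes. After median centring of the arrays, 7 rather than 11 fell in protoplasts. Of the 21, 9 carry an annotated symbol. In protoplasts against intact cells 7 of these fell (77.8%, against 29.2% of all genes) and 0 rose, with a median of -0.91. This split follows the annotation and no role, and the lists were chosen with earlier results of these data known. The other 12 have a locus code alone and are given no role beyond their place in the list. Of those 12, 4 fell and 4 rose in the same comparison (33.3% each), with a median of 0.11. Among the 21 are 10 loci of H2B and linker histones. Of these 10, 4 fell (40%, against 29.2% of all genes) and 2 rose (20%, against 15.8%), with a median of -0.31.

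HTB2, HTB4 and HTB11, the H2B genes other than HTB1 that carry an annotated symbol, fell in protoplasts. HTB2 went from a mean intensity of 9356 in intact cells to 6306 in osmotic cells and 3604 in protoplasts, a log2 difference of -1.36 ± 0.18 from intact cells (limma adjusted p = 1.8e-04). HTB11 and HTB4 changed by -0.91 ± 0.17 and -0.88 ± 0.16 (limma adjusted p = 0.0017 and 0.0016). In mannitol medium none of these passed, with -0.56 ± 0.18 for HTB2, -0.11 ± 0.17 for HTB11 and -0.22 ± 0.16 for HTB4, although HTB2 passed with a pseudocount of 64 or without the dimmest genes (limma adjusted p = 0.034 and 0.048). Protoplasts differed from osmotic cells by -0.80 ± 0.18, -0.80 ± 0.17 and -0.66 ± 0.16 (limma adjusted p = 0.0054, 0.0045 and 0.0096), where HTB1 had -0.16 ± 0.21. After median centring HTB11 and HTB4 were no longer called in this last comparison (limma adjusted p = 0.054 and 0.14). Of the other loci listed under H2B, AT5G02570 rose in protoplasts against intact cells. AT2G37470 (-0.03 ± 0.17), AT3G09480 (0.26 ± 0.33) and the dim AT1G08170 (0.30 ± 0.31) and AT2G28720 (-1.02 ± 0.43) were not called. AT2G28720 passed without osmotic replicate 3 and in a fit to the groups compared (limma adjusted p = 0.027 and 0.042). H2B genes are close in sequence, and how far their probe sets share signal was not tested. The male gamete H3 gene MGH3 had mean intensities between 18.8 and 22.7 and did not pass in any comparison.

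Among genes of the replication fork, TOPII and ICU2 fell in mannitol medium and in protoplasts. TOPII, the DNA topoisomerase that untangles replicated DNA, had 2640.0, 2073 and 2108 in intact cells, 891, 868 and 583 in osmotic cells, and 491, 566 and 519 in protoplasts. Its log2 difference was -1.54 ± 0.21 in osmotic cells and -2.07 ± 0.21 in protoplasts (limma adjusted p = 0.0030 and 3.9e-05). ICU2, the catalytic subunit of DNA polymerase alpha, had 531, 607 and 669 in intact cells, 291, 267 and 289.8 in osmotic cells, and 179.6, 218 and 243 in protoplasts. It changed by -1.05 ± 0.17 and -1.43 ± 0.17 (limma adjusted p = 0.0084 and 1.2e-04). All of these calls held under each of the 18 alternatives. PSF2, a subunit of the GINS complex of the replicative helicase, fell in protoplasts by 0.73 on the log2 scale (limma adjusted p = 0.0042) and had -0.31 ± 0.16 in mannitol medium. After median centring PSF2 had -0.44 and was not called (limma adjusted p = 0.072). AT5G26680, a locus code on the fork list, fell in protoplasts by 0.72 on the log2 scale (limma adjusted p = 0.023). In mannitol medium it had -0.56 ± 0.22 and was not called. Its call in protoplasts ended after median centring or quantile normalization (limma adjusted p = 0.0997 and 0.064). That call also ended without intact replicate 1 or 2 or protoplast replicate 1 or 2.

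The histone chaperone genes of the ASF1 pair, which hand H3 and H4 to the assembly machinery, had unlike values. ASF1B had means of 775, 525 and 217 in intact cells, osmotic cells and protoplasts, and fell in protoplasts by 1.79 on the log2 scale (limma adjusted p = 3.1e-04). SGA2, also called ASF1A, had 429.9, 354 and 479.8, with 0.16 ± 0.17 in protoplasts against intact cells (limma adjusted p = 0.51). That the pair differed in its response was not tested.

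The 4 genes that rose in protoplasts have a locus code alone, and of these AT1G75600 and AT1G13370 also rose in mannitol medium. AT1G75600 went from a mean of 33.5 in intact cells to 196 in osmotic cells and 211 in protoplasts, with log2 differences of 2.11 ± 0.42 and 2.05 ± 0.42 (limma adjusted p = 0.019 and 0.0029). Its intact intensities of 27.8, 21.3 and 51.4 are dim, so the sizes of both differences depend on the pseudocount. AT1G13370 went from 181 to 502 and 362 (limma adjusted p = 0.013 and 0.014). The mannitol calls did not hold with every array left out. That of AT1G75600 ended without intact replicate 1 or 2 or osmotic replicate 2 or 3, with limma adjusted p between 0.051 and 0.075. Its log2 difference in these fits lay between 1.88 and 2.20. Both calls of AT1G13370 ended without intact replicate 3 (limma adjusted p = 0.052 in each comparison). AT5G02570, listed under H2B, went from 187 to 359.8 and 477, with 1.31 ± 0.32 in protoplasts against intact cells (limma adjusted p = 0.0077). In mannitol medium its difference of 0.83 ± 0.32 missed the threshold (limma adjusted p = 0.16), and passed at 1.21 without osmotic replicate 3 (limma adjusted p = 0.024). AT1G06760 and AT2G30620 are the 2 loci other than HIS1-3 that were measured from the linker histone list. In mannitol medium they had -0.02 ± 0.16 and 0.02 ± 0.21 and were not called, and no difference from HIS1-3 was tested. They went apart in protoplasts, with 0.62 ± 0.16 and -0.59 ± 0.21 (limma adjusted p = 0.011 and 0.046). After quantile normalization AT1G06760 was not called (limma adjusted p = 0.083). The call of AT2G30620 ended with a pseudocount of 1 (limma adjusted p = 0.070), after median centring, without any 1 of the intact or protoplast arrays, and without osmotic replicate 2. AT5G12910 of the H3 list and AT1G07270 of the licensing list, also locus codes alone, fell in protoplasts. They had -1.64 ± 0.35 and -0.88 ± 0.20 against intact cells (limma adjusted p = 0.0039 and 0.0051). After median centring AT1G07270 was not called (limma adjusted p = 0.054). In mannitol medium neither was called, but AT1G07270 passed without the third array of every group (limma adjusted p = 0.043).

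Of 6 listed mitotic genes, the 2 measured encode Aurora kinases, which act on mitotic chromosomes and spindles. AUR2 had means of 1178 in intact cells, 541 in osmotic cells and 259 in protoplasts, and fell in both treatments and further in protoplasts than in osmotic cells (limma adjusted p = 0.0092, 1.9e-05 and 0.0020). AUR1 had 2677, 1675 and 1057, with limma adjusted p = 0.045, 1.8e-04 and 0.013 in the same comparisons. Its call in mannitol medium ended with a pseudocount of 1, with the replicate number as a block and in a fit to osmotic and intact cells alone. It also ended without any 1 of the intact or osmotic arrays, without protoplast replicate 1 or 2, and without the third array of every group. In these fits AUR1 had limma adjusted p between 0.053 and 0.14. Its call in protoplasts against osmotic cells ended after median centring (limma adjusted p = 0.15) and without osmotic replicate 2 (limma adjusted p = 0.058).

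**Figure D4:**
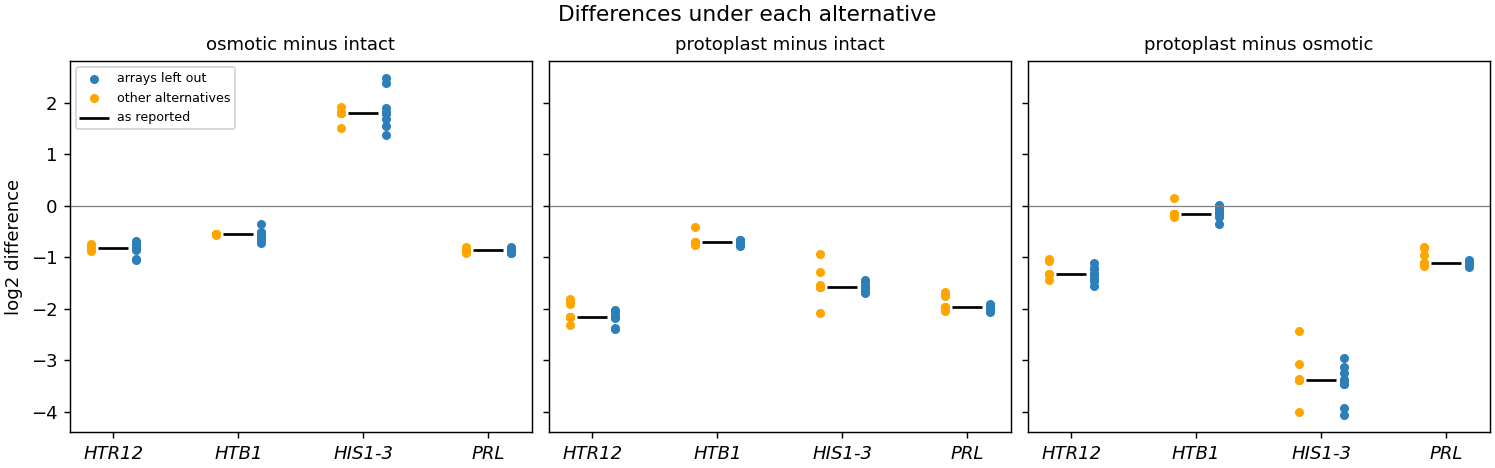
Log2 differences of HTR12, HTB1, HIS1-3 and PRL between groups under 18 alternatives, with arrays left out in blue, other alternatives in orange and the reported value as a black bar. The sign is the same throughout except for HTB1 in protoplasts against osmotic cells, which lies on both sides of 0.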

How the data were processed

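The authors deposited 1 linear intensity for each of 22810 probe sets on 9 arrays. From the values, each array was scaled to a trimmed mean of 500; the software behind them is not given in the sources used. Per the labels' protocols, biotinylated cRNA was made with a 3′ IVT kit. Of 22746 probe sets other than controls, GEO's platform annotation, which may be outdated, gave 13513 a single gene symbol and 503 several. Loci of 13286 of 13356 genes were found in RefSeq's table of TAIR10.1, and the brightest probe set stood for each gene. All arrays entered 1 model of log2(intensity + 16) in limma 3.58.1 (R 4.3.3), with Benjamini-Hochberg adjustment within each comparison. The model was tested on simulated data. Figures were drawn with matplotlib 3.10.9. The members and lists were chosen with earlier results of these data known. Every measured gene of the lists could be named, and for each member the 5 genes with the highest r. Alternatives were pseudocounts of 1 and 64, quantile normalization, median centring, no genes among the dimmest 40%, averaged probe sets, a replicate block, fits to the groups compared, and leaving out arrays. With 3 arrays a group, precision is limited.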

Additional observations from a re-analysis of the deposited data

How the results depend on the processing

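Of 18 alternatives, 8 changed the processing and 10 left out arrays. Pseudocounts, scaling and left-out arrays moved values as follows, and apart from the pseudocount and the scaling themselves the cause was not tested. On the log2 scale, protoplasts minus intact cells was, with a pseudocount of 64, -0.93 for HIS1-3, -1.80 for HTR12 and -1.75 for PRL, with a pseudocount of 1 -2.08 for HIS1-3, with median centring -1.29, -1.87, -1.67 and, for HTB1, -0.41, and with quantile normalization -1.74 for PRL. Protoplasts minus osmotic cells was -2.43 for HIS1-3 and -0.95 for PRL with a pseudocount of 64, -0.82 for PRL with quantile normalization, and -0.80 for PRL and 0.15 for HTB1 with median centring. Among the 21 other genes of the lists, 7 fell in protoplasts with median centring rather than 11. Against osmotic cells 3 fell and 3 rose with median centring rather than 6 and 1, and 2 rose with a pseudocount of 64, quantile normalization or the dimmest genes left out. Without arrays, 1 to 3 rose and 2 to 4 fell in mannitol medium, and 1 to 2 rose in protoplasts against osmotic cells. Over all genes, the 478 rises in mannitol medium became 300 and the 501 falls 214 with a pseudocount of 1, the falls became 821 with a pseudocount of 64 and 766 without the dimmest genes, and without arrays rises lay between 202 and 842 and falls between 158 and 708. Median centring gave 2733 rises in protoplasts against osmotic cells. The labels do not say that replicate numbers mark shared cultures. Deviations of same-numbered arrays had r between 0.02 and 0.32, over 0.1 in 8 of 9 pairs, and different-numbered arrays between -0.25 and 0.15, over 0.1 in 4 of 18. Pairing was taken to need r over 0.1 in every pair, so the numbers were not used as pairs. Of 9 arrays, 4 correlated best with their own number in both other groups. With the replicate number as a block, 556 genes rose and 566 fell in mannitol medium, counts among the list genes stayed at 2 and 2 there and at 4 and 11 in protoplasts, HTR12 and HIS1-3 were called in mannitol medium, and AUR1 was not (limma adjusted p = 0.053).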

Other observations

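Most genes of histone H3 and all of H4 are read by probe sets that the annotation gives to several loci at once, which belong to no single gene and were left out of the comparisons. Their values are given without a test. For the 5 probe sets given to the same 5 loci, whose synonym in the gene table is histone 3.1, protoplasts differed from intact cells by -2.26 for 1 probe set and by -0.18 to -0.58 for the others, on the log2 scale. The first went from a mean intensity of 8136 in intact cells to 3799.9 in osmotic cells and 1698 in protoplasts, and in mannitol medium the 5 lay between -1.09 and -0.20. The 3 probe sets given to the 3 loci of histone 3.3 lay between 0.05 and 0.28 in mannitol medium and between -0.89 and 0.23 in protoplasts. Another probe set, given to 2 loci of the H3 list, was higher in both treatments, by 1.19 in mannitol medium and 1.11 in protoplasts. Its mean intensity was 76.3 in intact cells, 197 in osmotic cells and 206 in protoplasts. The 5 probe sets given to 8 loci, among them the annotated histone H4 gene HIS4, lay between -0.62 and 0.38 in mannitol medium and between -0.35 and 0.26 in protoplasts. Probe sets given to the same loci thus differed from one another by over 2 on the log2 scale for histone 3.1, and which locus each one reads was not tested.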
